A study of Homo sapiens with 2 samples.

Results

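A group of 10 secreted factors that act on vessels, vascular tone or nearby cells was followed across hypoxia level and tissue depth in MDA-MB-231 tumors: VEGFA, VEGFB, VEGFC, PGF, ANGPTL4, ADM, EDN1, STC1, STC2 and FGF2. They were taken by symbol from the feature list, where all 10 were found among 36601 human features. MDA-MB-231 is a human breast cancer cell line, and the tumors carried a hypoxia fate-mapping reporter, were untreated and were harvested 18 days after implantation. A fresh frozen 10 µm section of each of 2 tumors (Tumor-897, here tumor 1, and Tumor-899, here tumor 2) was read with Visium, which counts transcripts as unique molecular identifiers (UMIs) over a grid of spots that can each hold several cells. Both tumors have the same labels, so the comparisons were made between zones inside each tumor, with the tumor as the replicate. Nothing in the labels says that the tumors came from separate animals, so p-values of the main score and depth tests measure the spread between these 2 sections. That spread was estimated mostly over all genes together and not from each gene alone, as the degrees of freedom given with the processing show. The labels do not give the host or the implantation site, and the reporter transcripts are not among the features.

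Tumor 1 gave 58661164 UMIs over 2536 spots (median 23574 per spot) and tumor 2 gave 39735490 UMIs over 2841 spots with at least 500 UMIs (median 15895). A low-UMI area, set by a threshold on the UMIs of neighbouring spots, took 20.8% of the spots in tumor 1 and 29.04% in tumor 2, with medians of 4592 and 1430 UMIs. The 2 libraries share 1627 spot barcodes, which are positions of the array and not cells. Of 12 endothelial marker genes, ESAM supplied more than any other in each tumor (88.2 of 155 and 93.6 of 165 UMIs for the list, both per 1000000 UMIs), while EMCN was at 0 in the high-score and low-score zones of both tumors. Transcripts of host cells that match a human gene are counted with the human ones.

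VEGFA, VEGFB and PGF (placental growth factor) are relatives that bind the receptor FLT1, VEGFA also binding KDR, the main angiogenic receptor of endothelium, and VEGFC is the lymphatic growth factor that binds FLT4. ADM (adrenomedullin) is a peptide that widens vessels through CALCRL with RAMP2 or RAMP3, whereas EDN1 (endothelin 1) constricts them through EDNRA. ANGPTL4 inhibits lipoprotein lipase and affects vessel permeability, STC1 and STC2 are stanniocalcins, and FGF2 is a growth factor that leaves cells without a signal peptide. In low oxygen, hypoxia-inducible factors (HIFs) accumulate and bind sites with the core ACGTG or GCGTG. VEGFA, ADM and ANGPTL4 are textbook HIF targets.

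Promoter windows from RefSeq (GRCh38.p14, 250 bases before to 50 after the annotated start) are shown for 4 factors, 2 with a large difference along the hypoxia score described below (ADM, ANGPTL4) and 2 with a small one (VEGFB, VEGFC). Each is written 5′ to 3′ on the gene's strand. Capitals mark ACGTG or GCGTG, or the same letters on the other strand, CACGT or CACGC.
ADM, chr11:10304823-10305122 (plus strand): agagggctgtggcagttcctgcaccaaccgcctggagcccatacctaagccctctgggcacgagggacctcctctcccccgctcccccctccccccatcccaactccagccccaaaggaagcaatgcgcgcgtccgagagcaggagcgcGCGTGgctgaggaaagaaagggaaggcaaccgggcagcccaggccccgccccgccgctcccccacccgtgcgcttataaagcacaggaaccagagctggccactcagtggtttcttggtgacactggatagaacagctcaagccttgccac
ANGPTL4, chr19:8363905-8364204 (plus strand): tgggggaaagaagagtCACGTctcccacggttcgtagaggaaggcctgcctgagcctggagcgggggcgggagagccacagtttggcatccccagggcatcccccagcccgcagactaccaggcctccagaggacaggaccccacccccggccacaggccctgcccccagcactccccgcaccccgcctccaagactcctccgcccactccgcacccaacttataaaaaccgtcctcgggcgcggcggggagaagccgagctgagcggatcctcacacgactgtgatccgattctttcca
VEGFB, chr11:64234334-64234633 (plus strand): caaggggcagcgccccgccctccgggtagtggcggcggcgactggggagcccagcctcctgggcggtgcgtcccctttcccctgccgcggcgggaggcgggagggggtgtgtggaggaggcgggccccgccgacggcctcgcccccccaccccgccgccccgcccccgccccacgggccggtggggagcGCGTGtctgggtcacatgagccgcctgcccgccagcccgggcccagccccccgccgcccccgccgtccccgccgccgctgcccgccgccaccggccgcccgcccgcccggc
VEGFC, chr4:176792873-176793172 (minus strand): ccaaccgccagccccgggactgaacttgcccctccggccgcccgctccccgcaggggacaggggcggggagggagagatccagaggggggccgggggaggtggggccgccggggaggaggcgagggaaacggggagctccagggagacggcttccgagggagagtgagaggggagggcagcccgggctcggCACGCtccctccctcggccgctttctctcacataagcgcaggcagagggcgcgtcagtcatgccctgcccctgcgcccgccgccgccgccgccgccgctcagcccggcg
Each of these 4 windows holds 1 match: GCGTG 101 bases before the start in ADM and 61 bases before it in VEGFB, CACGT 234 bases before the start in ANGPTL4, and CACGC 59 bases before it in VEGFC. Windows were searched for 8 of the 10 factors (11 windows), all but VEGFA and STC1, and 10 of the 11 windows hold a match. Of all 35116 promoter windows of this length, 48.4% hold one, so the match is common. It was present in windows of factors with large differences (ADM and ANGPTL4 alone) and with small differences alike. A match is a run of letters and not a measured binding site.

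The hypoxia level of a spot was scored as the mean z-score of 28 glycolytic and other HIF-linked genes, none of them among the 10 factors, averaged over adjacent spots. The high-score zone was the top quartile of spots and the low-score zone the bottom quartile (634 and 634 spots in tumor 1, 711 and 711 in tumor 2). UMIs were summed over each zone, and levels are given as counts per 1000000 UMIs of the zone (CPM). Fitted differences also carry edgeR's TMM scaling between the sums, which levels and their ratios do not. A fitted difference can therefore lie outside the ratios of both tumors. Score and factors were read in the same libraries. Of the 9 factors that passed the count filter, 8 were higher in the high-score zone, in edgeR's quasi-likelihood test at a Benjamini-Hochberg adjusted p under 0.05. Over all 14166 genes tested, 8.2% were higher and 6.42% lower (14.6% in all). The median log2 difference was 0.77 over the 9 tested factors and 0.0042 over all genes tested. They are described below as a steep group of 4 and a shallow group of 4, and STC2 did not pass the test. In a spot of several cells, fewer cells that make a transcript and less of it per cell cannot be told apart.

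ADM (chromosome 11, 10305073 to 10307397 in RefSeq) had the largest difference of the 9 factors. It was at 243 CPM in the high-score zone against 40.7 CPM where the score was low in tumor 1, and at 152 against 31.5 CPM in tumor 2. Both high-score values lay above both low-score values, and the fitted difference was 5.93-fold (log2 2.57 ± 0.10 SE, n = 2 tumors, edgeR adjusted p = 9.42e-11). ADM ranked 16th by log2 difference among all genes that passed the count filter, the score genes included.

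ANGPTL4 (chromosome 19, 8364155 to 8374370) was at 215 CPM in the high-score zone against 41.1 CPM in the low-score zone, both in tumor 1. In tumor 2 it was at 137 against 47.5 CPM. Both high zones lay above both low zones, and the ratio was larger in tumor 1, at 5.23 (95% counting interval 4.82 to 5.68), than in tumor 2, at 2.89 (2.54 to 3.31). These 2 intervals do not overlap, but they cover counting error only. The fitted difference was log2 2.12 ± 0.14 (edgeR adjusted p = 5.68e-08).

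VEGFA (chromosome 6, 43770211 to 43786487), the main angiogenic ligand of the family, was at 142 CPM in the high-score zone against 38.6 CPM in the low-score zone of tumor 1. In tumor 2 it was at 117 CPM in the high-score zone against 37.7 CPM in the low-score zone. Its fitted difference was 3.71-fold (log2 1.89 ± 0.10, edgeR adjusted p = 2.55e-09). STC1, a stanniocalcin, was at 183 CPM with a high score against 54.7 CPM with a low one in tumor 1, and at 162 against 48.9 CPM in tumor 2. The 2 tumors gave STC1 nearly the same ratio, 3.35 (3.11 to 3.61) and 3.31 (2.91 to 3.77), and the fitted difference was log2 1.85 ± 0.09 (edgeR adjusted p = 1.01e-09). ADM, ANGPTL4, VEGFA and STC1 kept their direction and their call in each of the 17 alternative settings that gave them a test.

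In the shallow group the fitted differences were 1.38-fold to 1.71-fold. PGF was at 68.0 CPM with a high score against 41.8 CPM with a low one in tumor 1 and at 63.8 against 41.8 CPM in tumor 2 (log2 0.77 ± 0.09, edgeR adjusted p = 5.11e-05). VEGFC, the lymphatic factor, was at 52.0 CPM with a high score against 38.3 CPM with a low one in tumor 1, and at 46.8 against 36.6 CPM in tumor 2 (log2 0.52 ± 0.10, adjusted p = 0.00241). Both factors were higher in the high-score zone of each tumor, without overlap. VEGFB, a ligand of FLT1, was at 114 CPM with a high score against 84.0 CPM with a low one in tumor 1 and at 116 against 94.1 CPM in tumor 2 (log2 0.48 ± 0.09, adjusted p = 0.00137). On spots thinned to 2000 UMIs the calls of PGF, VEGFC and VEGFB were lost (adjusted p = 0.115, 0.159 and 0.360), with VEGFB at log2 0.30. By DESeq2's test VEGFC and VEGFB lost theirs, and VEGFC also without the tumor block.

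EDN1 was at 38.1 CPM with a high score against 34.4 CPM with a low one in tumor 1 and at 38.03 against 24.4 CPM in tumor 2. The high-score zones were alike in the 2 tumors and the low-score zones were not, so the ratio was 1.11 (0.98 to 1.25) in tumor 1 and 1.56 (1.28 to 1.91) in tumor 2. The fitted difference of log2 0.46 ± 0.12 passed (edgeR adjusted p = 0.0170). The interval in tumor 1 reaches below 1, but it carries no TMM scaling, with which tumor 1 alone was at log2 0.27, without a test. The call was lost in 6 of 17 alternatives, among them those that left out the low-UMI area (adjusted p = 0.055) and the shallow spots. The low-UMI area held 7.59% of the high-score spots against 57.8% of the low-score spots in tumor 2, and 14.7% against 11.5% in tumor 1.

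**Figure D1:**
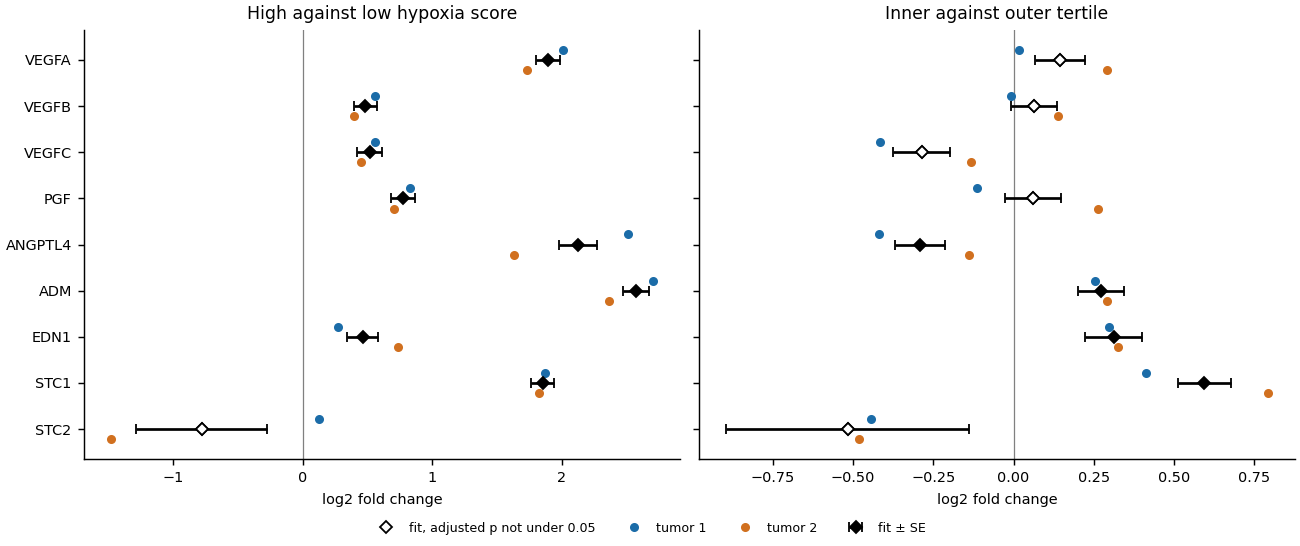
Log2 fold change of each tested factor, high against low hypoxia score on the left and inner against outer tertile on the right. Black diamonds are the edgeR fit with its SE, open where the adjusted p was not under 0.05, and circles are the 2 tumors. ADM, ANGPTL4, VEGFA and STC1 lie between 1.63 and 2.70 in both tumors on the left, and STC1 lies at 0.41 and 0.79 on the right.

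Along deciles of the score the steep factors did not change evenly. In tumor 1 the ADM level was 34.9 CPM in decile 1, 65.7 CPM in decile 5, 132 CPM in decile 8 and 349 CPM in decile 10. In tumor 2 it was 38.2 CPM in decile 5, 73.4 CPM in decile 8, 95.1 CPM in decile 9 and 263 CPM in decile 10. The last decile thus stood well above the ninth in both tumors. It held 29.7% and 37.8% of all ADM UMIs, against 8.71% and 10.8% of the UMIs of all genes. VEGFA was at 57.1 and 44.4 CPM in decile 5 and at 182 and 165 CPM in decile 10, and its top decile held 21.04% and 26.4% of its UMIs.

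ANGPTL4 in tumor 1 climbed through all 9 steps between deciles, with 37.7 CPM in decile 1, 82.7 CPM in decile 5 and 280 CPM in decile 10. In tumor 2 it stayed between 38.2 and 52.3 CPM up to decile 6 and then reached 187 CPM in decile 10. Its middle deciles therefore differed between the tumors, 82.7 against 42.4 CPM in decile 5 and 166 against 84.5 CPM in decile 8, with counting intervals that do not overlap. STC1 had 102 and 58.3 CPM in decile 5 and 220 and 229 CPM in decile 10. The shallow factors had flatter courses: the top decile held 11.4% to 13.7% of the UMIs of VEGFC, EDN1 and PGF and 11.3% of those of VEGFB in each tumor.

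The lowest decile of tumor 2 ran against the trend for the steep factors. ADM was at 55.1 CPM in it against 28.1 CPM in decile 2, VEGFA at 59.2 against 31.8 CPM, and STC1 at 77.1 against 44.5 CPM. Of the spots in that decile 86.3% lay in the low-UMI area, with a median of 998 UMIs, and the pooled score genes were also higher in it (6253 CPM) than in decile 2 (5379 CPM). In tumor 1, where 5.91% of decile 1 lay in the low-UMI area, decile 1 had the lowest level of VEGFA, ADM, ANGPTL4 and STC1. With the score computed on spots thinned to 2000 UMIs, an alternative chosen after seeing the data, 8 factors were again called higher. That setting leaves out spots under 2000 UMIs, 15 in tumor 1 and 608 in tumor 2. Most spots of decile 1 of tumor 2 are therefore absent from it and were not scored again.

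**Figure D2:**
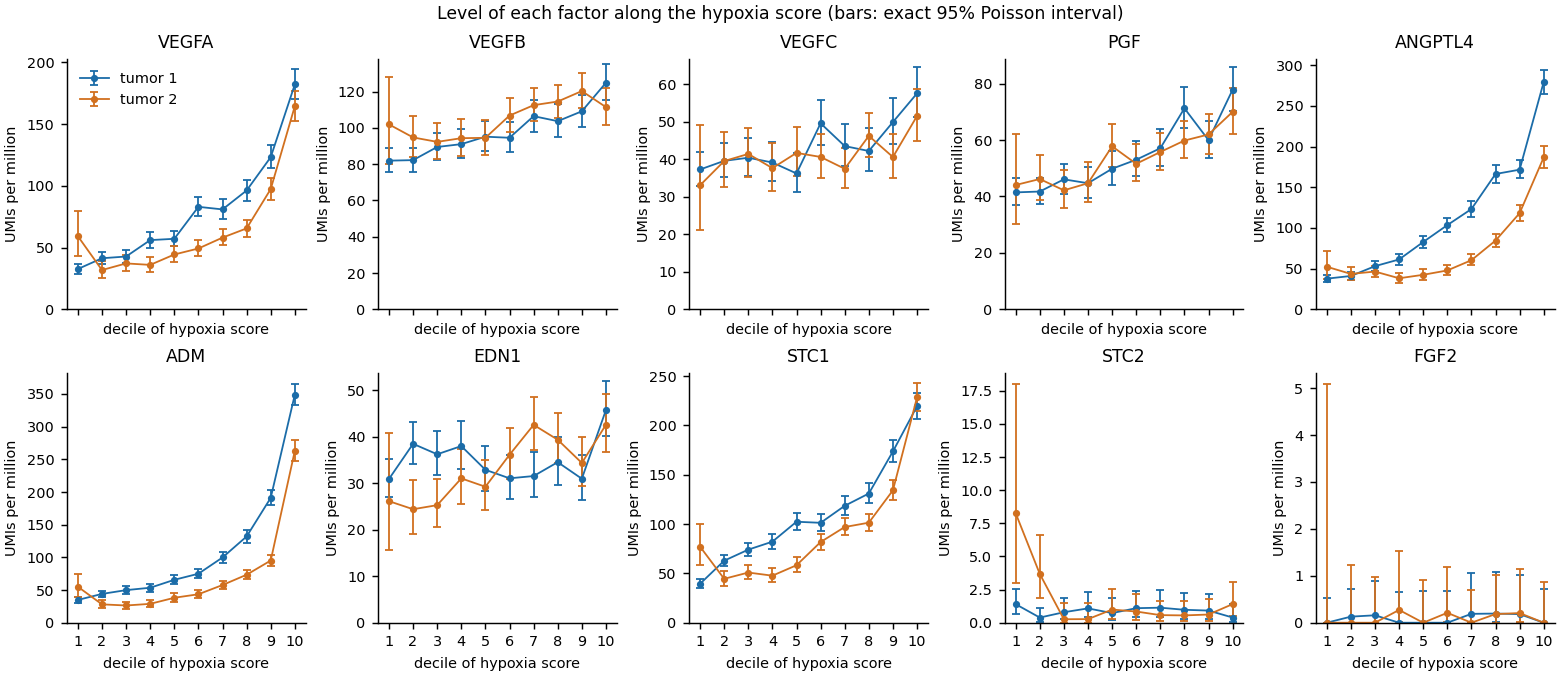
Level of each factor (CPM) in deciles of the hypoxia score, with exact 95% Poisson intervals, which cover counting error only. The curves of ADM, ANGPTL4, VEGFA and STC1 bend upward to decile 10 in both tumors, and decile 1 of tumor 2 (orange) lies above decile 2 for each of these 4.

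The levels dropped within a few spots of the high-score zone. In tumor 1 ADM was at 243 CPM inside the zone, 95.6 CPM at 1 step, 62.5 CPM at 2 steps and 38.3 CPM at 6 or more steps. In tumor 2 the same positions had 152, 65.4, 43.9 and 26.9 CPM. Most of the drop came at the first step, and it was similar for VEGFA (142, 76.4, 55.5 and 49.0 CPM in tumor 1, 117, 57.3, 48.1 and 38.5 CPM in tumor 2). EDN1 showed no such course in tumor 1, with 38.1 CPM inside and 31.1 to 37.2 CPM outside. The zone was cut from the smoothed score, so neighbouring spots share part of their score, and these courses are a description.

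The steep factors were also high beside the low-UMI area. ADM was at 202 and 137 CPM inside it in tumors 1 and 2, at 226 and 221 CPM within 1 to 2 steps of it, and at 56.0 and 43.7 CPM at 9 or more steps. STC1 was at 206 and 194 CPM inside, 181 and 214 CPM at 1 to 2 steps, and 70.3 and 63.4 CPM at 9 or more steps. ANGPTL4 was lower inside (123 and 96.5 CPM) than at 1 to 2 steps (177 and 163 CPM) in both tumors. VEGFB and VEGFC varied little over the same distances, with VEGFB between 90.8 and 111 CPM in both tumors.

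**Figure D3:**
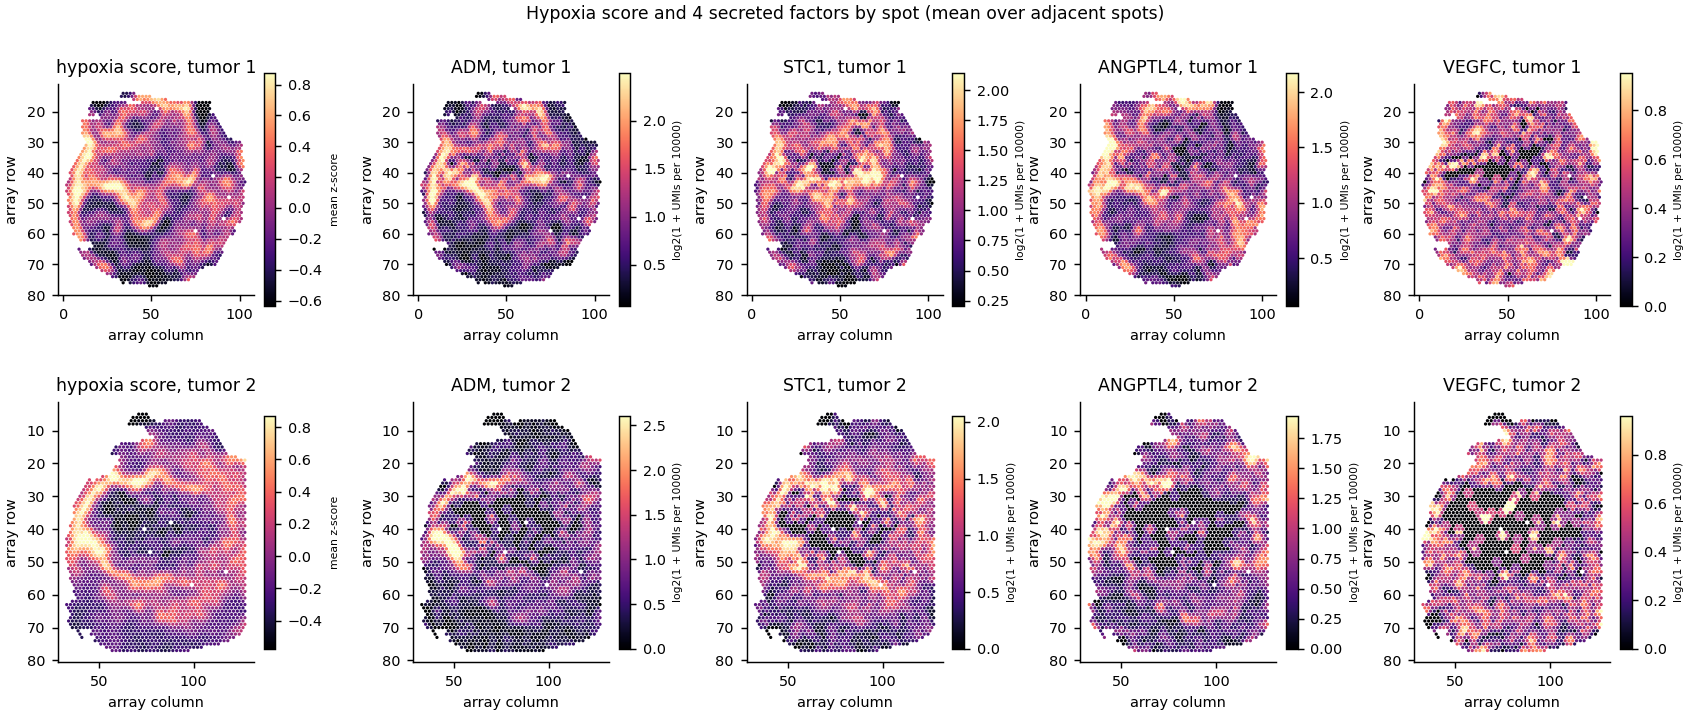
Position of the hypoxia score and of ADM, STC1, ANGPTL4 and VEGFC on the array, tumor 1 above and tumor 2 below, each value averaged over adjacent spots and coloured on its own scale. Bright bands of the score recur as bright bands of ADM and STC1, ANGPTL4 is also bright along parts of the border, and VEGFC has no such band.

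STC2 and FGF2 were near the limit of detection. STC2 had 52 UMIs in tumor 1 and 42 in tumor 2, which is 0.89 CPM (95% interval 0.66 to 1.16) and 1.06 CPM (0.76 to 1.43). It was at 0.84 against 0.83 CPM in the high-score and low-score zones of tumor 1 and at 0.93 against 3.09 CPM in tumor 2. The fitted difference was log2 -0.78 ± 0.50, with an interval of -1.85 to 0.29, and did not pass (edgeR adjusted p = 0.340). In tumor 2, 18 of its 42 UMIs lay in the outermost 1 to 2 steps, which hold 11.2% of the spots, and 23.8% lay in the spots richest in markers of other cell types, which hold 6.72% of all UMIs. In tumor 1 each of the 52 UMIs lay in a spot of its own. FGF2 had 5 UMIs in tumor 1 and 4 in tumor 2 and was not tested. Its gene (chromosome 4, 122826682 to 122898236) overlaps NUDT6 by 5660 bases, and NUDT6 was at 6.4 and 8.0 CPM.

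Depth was measured without any expression value, as steps on the array to the nearest tissue border. The inner tertile lay at least 12 steps in (tumor 1) or 15 steps (tumor 2), and the outer tertile within 5 and 7 steps. The low-UMI area took up much more of the inner tertile than of the outer. Without that area the inner tertile kept 505 of 848 spots in tumor 1 and 440 of 979 in tumor 2. The outer tertile kept 862 of 919 and 896 of 997. The pooled score genes differed little between these zones, with 8121 against 8493 CPM in the inner and outer tertile of tumor 1 and 8407 against 7595 CPM in tumor 2. STC1, EDN1 and ADM were higher in the inner tertile, ANGPTL4 was lower, and the other 5 tested did not pass. Of 14758 genes tested, 2.3% were higher and 3.36% lower (5.66% in all). The median difference of the 9 factors was log2 0.063, against 0.00087 over all genes.

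STC1 had the largest depth difference of the factors. It was at 127.3 CPM in the inner tertile against 94.95 CPM in the outer tertile of tumor 1, and at 131 against 76.9 CPM in tumor 2. Both inner values lay above both outer values, and the fitted difference was 1.51-fold (log2 0.59 ± 0.08, edgeR adjusted p = 1.23e-04). By single bins of 2 steps, STC1 had 96.0 and 86.5 CPM at the border, 116 and 103 CPM at 11 to 12 steps, and 173 and 160 CPM at 21 to 22 steps. It passed in 13 of 14 alternatives. Without the tumor as a block it did not (adjusted p = 0.13).

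EDN1 was at 39.04 CPM in the inner tertile against 31.6 CPM in the outer tertile of tumor 1 and at 38.9 against 31.5 CPM in tumor 2, so the tumors gave nearly the same ratio (log2 0.31 ± 0.09, edgeR adjusted p = 0.0436). ADM was at 121 CPM in inner against 101 CPM in outer tissue of tumor 1 and at 81.6 against 67.7 CPM in tumor 2, and here the inner value of tumor 2 lay below the outer value of tumor 1 (log2 0.27 ± 0.07, adjusted p = 0.0277). EDN1 lost its call in 10 of 14 alternatives and ADM in 8. Leaving out the low-UMI area was among these for both (edgeR adjusted p = 0.084 for EDN1 and 0.064 for ADM). With the score tertile as a term and the low-UMI area left out, an alternative chosen after seeing the data, the ADM difference was log2 0.083. In that fit the lowest-score inner sum of tumor 2 held 1 spot.

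ANGPTL4 went the other way, at 93.9 CPM in the inner tertile against 125 CPM in the outer tertile of tumor 1 and at 74.4 against 83.2 CPM in tumor 2. The direction was the same in both tumors, although the inner value of tumor 1 exceeded the outer value of tumor 2 (log2 -0.29 ± 0.08, edgeR adjusted p = 0.0319). The bins show where the outer excess sat. ANGPTL4 was at 149.5 and 111 CPM in the outermost 1 to 2 steps and at 85.4 and 60.5 CPM at 5 to 6 steps, and it was again at 137 and 96.4 CPM at 21 to 22 steps. Markers of fibroblasts ran along with the border: the 10 genes of that list summed to 530 against 1476 CPM in the inner and outer tertile of tumor 1 and to 379 against 2001 CPM in tumor 2. Without the 10% of spots richest in markers of other cell types the ANGPTL4 difference was log2 -0.20 and did not pass (adjusted p = 0.074). Its call was lost in 5 of 14 alternatives, library size alone, DESeq2's test, no tumor block and thinning being the others. The 6 genes of an adipocyte list, added after values were seen, summed to 11.8 against 14.3 CPM and to 12.2 against 12.5 CPM.

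VEGFC was at 36.1 CPM in the inner tertile against 47.9 CPM in the outer tertile of tumor 1 and at 39.6 against 44.1 CPM in tumor 2 (log2 -0.29 ± 0.09), and it did not pass (edgeR adjusted p = 0.0662). It passed as lower in 8 of 14 alternatives, with the score tertile as a term among them (log2 -0.34, adjusted p = 0.0016). That fit took several zones of each section as separate sums (12 residual degrees of freedom), unlike the main test. VEGFA, VEGFB, PGF and STC2 did not pass, with fitted differences of 0.14 (95% interval -0.019 to 0.31), 0.063 (-0.087 to 0.21), 0.062 (-0.12 to 0.25) and -0.52 (-1.31 to 0.28). The intervals of VEGFA, VEGFB and PGF reach no further than 0.31 from 0, while that of STC2 is wide.

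**Figure D4:**
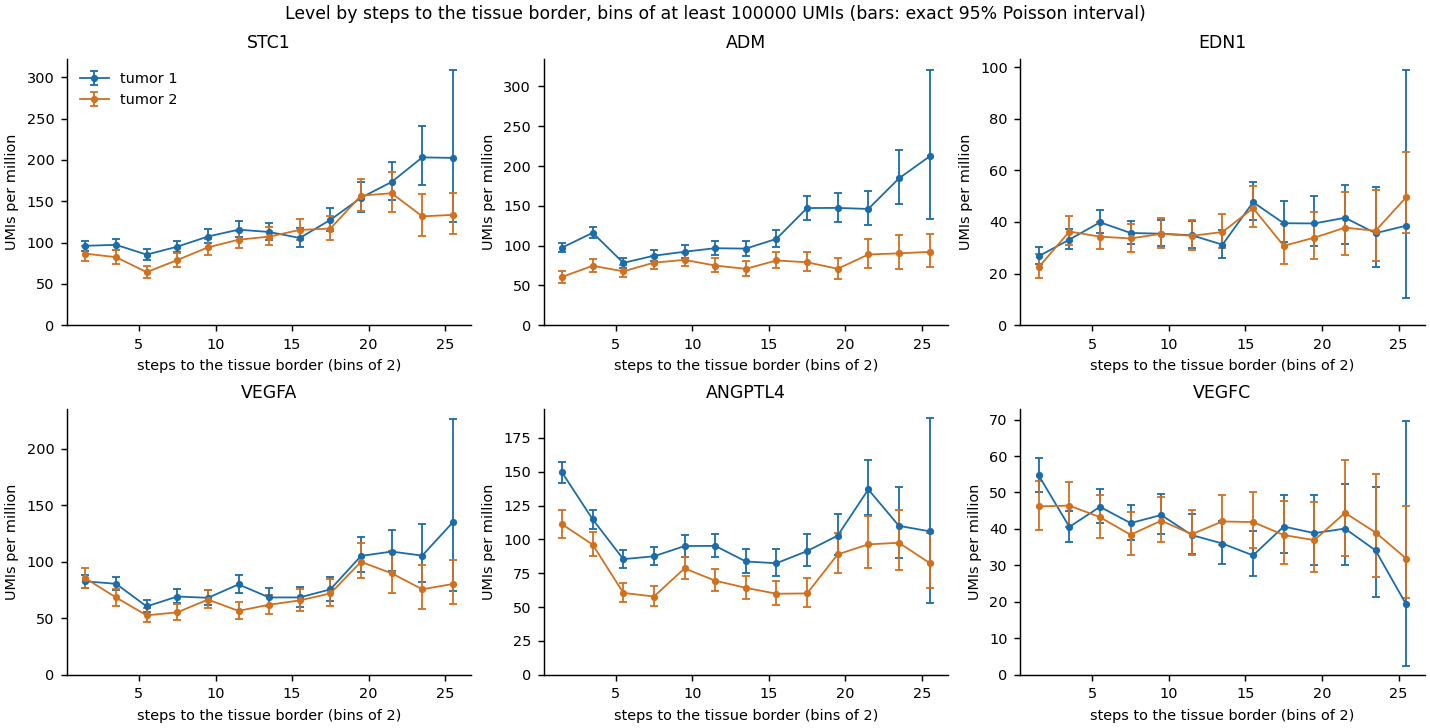
Level of 6 factors (CPM) by steps to the tissue border in bins of 2, with exact 95% Poisson intervals. STC1 climbs inward in both tumors, ANGPTL4 is at 149.5 and 111 CPM in the outermost bin and lower just inside it.

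Score and depth were then read together. Fits with the score term count zones of the same section as separate values, so their p-values do not measure the spread between tumors alone. In the highest score tertile ANGPTL4 was at 172 CPM in inner tissue against 234 CPM in outer tissue of tumor 1, and at 94.0 against 174 CPM in tumor 2. With the score tertile as a term in the fit its inner difference was log2 -0.41 (edgeR adjusted p = 0.016). In the same score tertile STC1 was at 215 CPM in inner tissue against 153 CPM in outer tissue of tumor 1 and at 146 against 155 CPM in tumor 2, where the counting intervals (135 to 156 and 143 to 167) overlap. Its difference with the score term was log2 0.49 (adjusted p = 0.0015), and with the low-UMI area also left out it was log2 0.33 (adjusted p = 0.0014). The latter alternative was chosen after seeing the data, and its lowest-score inner sum of tumor 2 held 1 spot and 4363 UMIs. In the highest tertile ADM was at 262 CPM in inner tissue against 213 CPM in outer tissue of tumor 1 and at 94.8 against 171 CPM in tumor 2, in opposite directions, and with the score term it did not pass (log2 0.25, adjusted p = 0.28). Among high-quartile spots, a narrower set than the highest tertile, the mean score in tumor 2 was 0.34 inner against 0.53 outer. In tumor 1 it was 0.47 against 0.51.

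**Figure D5:**
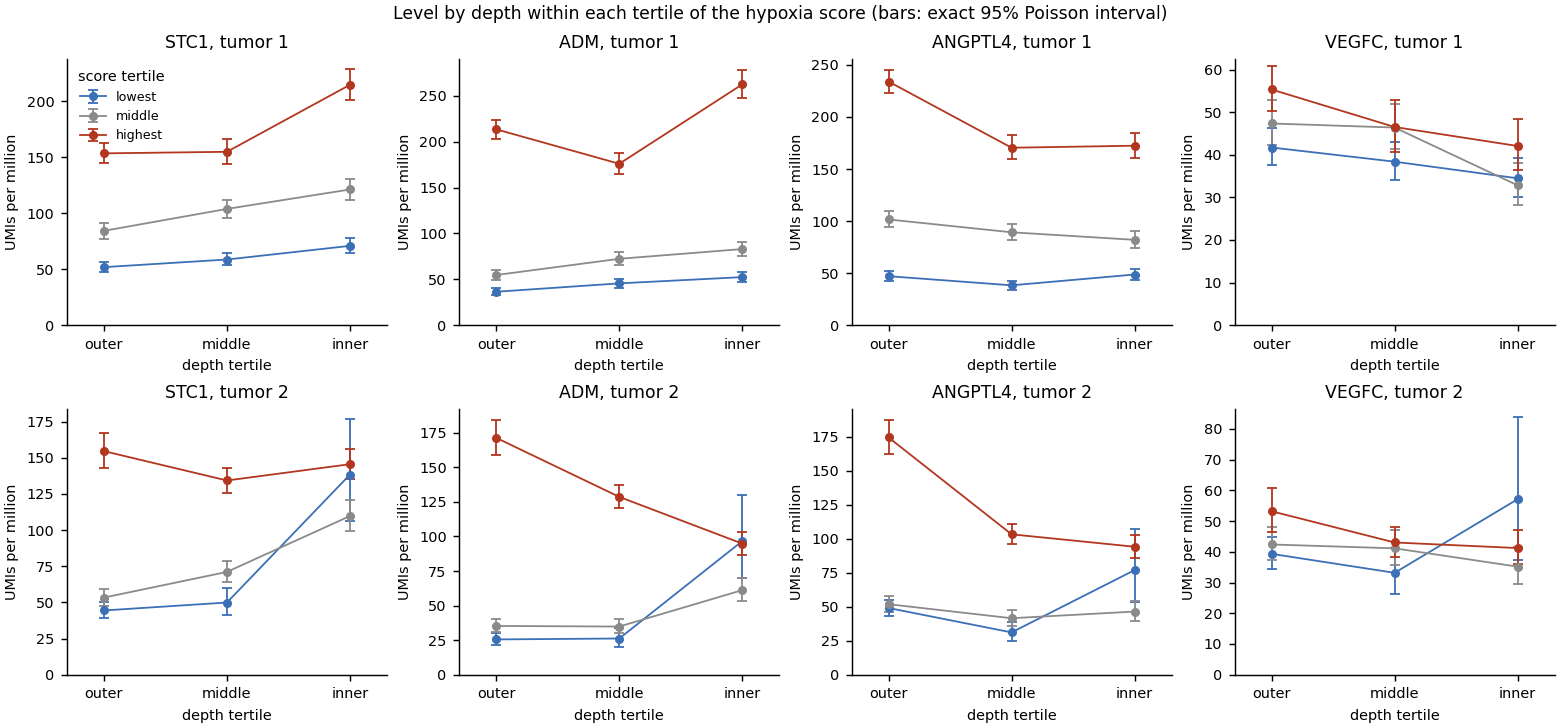
Level of STC1, ADM, ANGPTL4 and VEGFC (CPM) in outer, middle and inner tissue within each score tertile, tumor 1 above and tumor 2 below, with exact 95% Poisson intervals. In the highest tertile ANGPTL4 is lower inside in both tumors, and in tumor 2 the lowest tertile of inner tissue, which is shallow, lies far above the lowest tertile elsewhere for STC1 and ADM.

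Whether the score difference itself depended on depth was tested as an interaction. None of the 8 tested factors passed (edgeR, 0.0162% of 12308 genes called), and 3 had an unadjusted p under 0.05, VEGFA, PGF and ANGPTL4. Each of the 8 fitted interactions was negative, between log2 -0.95 ± 0.46 for ADM and -0.11 ± 0.19 for VEGFB. Over all genes tested, 50.2% were positive. With tumor 2 left out, EDN1 and STC1 were positive, at 0.32 and 0.13, and the other factors stayed negative. VEGFA was at -0.16 without tumor 2 and at -2.17 without tumor 1. For ADM the interaction was -0.10 in tumor 1 and -2.90 in tumor 2, so tumor 2 supplied nearly all of it. There the 277 low-score spots of inner tissue lay wholly in the low-UMI area, with a median of 1217 UMIs, and their pooled score genes were at 8685 CPM, against 5315 CPM in low-score outer spots. In tumor 1 the 2 values were 5629 and 5602 CPM. Leaving out the low-UMI area empties 1 of the 8 sums and could not be fitted. With at least 2000 UMIs per spot the ADM interaction was -0.60 (adjusted p = 0.82), but the low-score inner sum of tumor 2 then held 11 spots and 26073 UMIs.

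The factors were next compared with each other and with other genes over square tiles of the array (77 tiles in tumor 1 and 84 in tumor 2, Pearson r of log2 CPM + 1). Tiles of a section share a library and differ in depth, so the coefficients are a description. The 3 genes most like ADM were DDIT4 (mean r 0.87), ERRFI1 (0.85) and NDRG1 (0.84), those most like STC1 were BNIP3 (0.86), ERRFI1 (0.86) and NDRG1 (0.81), and those most like VEGFA were NDRG1 (0.83), ERRFI1 (0.83) and BNIP3 (0.82). Of these, ERRFI1, a feedback inhibitor of the EGF receptor, is not in the score. ANGPTL4 was most like PGK1 (0.72), LDHA (0.71) and NDRG1 (0.71), with higher values in tumor 1 (0.86, 0.80 and 0.90) than in tumor 2 (0.57, 0.62 and 0.52).

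For the shallow factors no gene came near these values. The best was SLC2A1 for PGF (0.46), SAP30BP for VEGFC (0.48, made of 0.19 in tumor 1 and 0.77 in tumor 2), SNHG5 for EDN1 (0.44) and AL355312.4 for VEGFB (0.40). Among the factors themselves VEGFA and ADM had a mean r of 0.81, ADM and STC1 of 0.80, VEGFA and STC1 of 0.73, and ANGPTL4 and ADM of 0.67. VEGFC and EDN1 had -0.15 and -0.26 in the 2 tumors. VEGFA and PGF had 0.61 in tumor 1 and 0.026 in tumor 2.

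Of 23 receptor and co-receptor genes 18 were tested with the score and 3 were called, beside 14.6% of all genes. SDC4 was higher (log2 0.32 ± 0.08, edgeR adjusted p = 0.0163), and SDC1 (-0.55 ± 0.09) and RAMP2 (-1.22 ± 0.36) were lower in the high-score zone. RAMP2 lost its call in 7 of 15 alternatives, among them without the low-UMI area and without the spots richest in markers of other cell types (adjusted p = 0.085), and SDC4 in 5 of 17. SDC4 and SDC1 are heparan sulfate proteoglycans that hold growth factors, and RAMP2 is the partner that makes CALCRL an ADM receptor. TEK, the angiopoietin receptor, had log2 0.81 ± 0.46 and did not pass (adjusted p = 0.267). In the inner tertile no receptor of 19 tested was higher, and NRP1 (-0.33 ± 0.07), NRP2 (-0.38 ± 0.11), SDC1 (-0.33 ± 0.07) and SDC3 (-0.67 ± 0.15) were lower, 4 of 19 beside 3.36% of all genes. Without the marker-rich spots NRP2 was at -0.27 and did not pass (adjusted p = 0.107). With 1 tumor left out SDC3 was at -1.12 and -0.35, and NRP2 at -0.57 and -0.22. NRP1 and NRP2 are co-receptors of the VEGF family. ACKR3 (-1.30 ± 0.40) and TEK (-0.86 ± 0.36) did not pass there.

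Other angiogenic ligands, some of them bound to the membrane, were called in both directions. Of 40 listed, 32 were tested with the score, 7 were higher and 2 lower, beside 8.2% and 6.42% of all genes. The higher ones were ANG (log2 1.37 ± 0.28), TGFA (1.36 ± 0.17), EFNA3 (1.25 ± 0.21), PDGFB (1.22 ± 0.15), CXCL8 (1.05 ± 0.12), MIF (0.65 ± 0.08) and CCN1 (0.53 ± 0.09). The lower ones were EFNB1 (-0.68 ± 0.17) and EFNB2 (-0.50 ± 0.13), both membrane-bound ephrins. ANG is angiogenin, TGFA a ligand of the EGF receptor, PDGFB a pericyte recruiter and CXCL8 the chemokine interleukin 8. ANG lost its call in 3 of 16 alternatives, EFNA3 in 2 of 16, EFNB1 in 3 of 17, and CCN1 and MIF in 1 of 17. EFNB2 lost its call in 4 of 17 and changed sign after thinning, while TGFA, PDGFB and CXCL8 kept theirs. With 1 tumor left out TGFA was at 0.78 and 1.68 and PDGFB at 0.76 and 1.52. The list's median was 0.062.

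With depth, 33 ligands were tested, of which 7 were higher inside and 5 were lower, beside 2.3% and 3.36% of all genes. Chemokines CXCL1 (log2 0.91 ± 0.18), CXCL8 (0.87 ± 0.11) and CXCL2 (0.65 ± 0.17) were higher, as were ESM1 (1.35 ± 0.33), EDN2 (0.85 ± 0.24), APLN (0.65 ± 0.18) and CCN1 (0.35 ± 0.08). EDN2 is the closest relative of EDN1, and APLN (apelin) is a vasoactive peptide. PTN (-0.49 ± 0.13), EFNB2 (-0.43 ± 0.11), HBEGF (-0.43 ± 0.09), JAG1 (-0.38 ± 0.08) and PDGFC (-0.27 ± 0.07) were lower. APLN, CXCL2 and PDGFC lost their calls in 5 of 14 alternatives, and PTN, EFNB2 and HBEGF in 4 of 14. ESM1 and EDN2 lost theirs in 4 of 13, CCN1 and JAG1 in 3 of 14, CXCL1 in 2 and CXCL8 in 1. With 1 tumor left out ESM1 was at 0.64 and 1.67, EDN2 at 0.31 and 1.05, and HBEGF at -0.65 and -0.24. ANGPT2, a TEK ligand, had 1.39 ± 0.46 and did not pass (edgeR adjusted p = 0.0815). It was close to the count filter, with a test in 9 of 14 alternatives and none in the main score comparison.

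Inhibitors of angiogenesis were called in both directions with the score, 2 higher and 4 lower of 15 tested, beside 8.2% and 6.42% of all genes. ADAMTS1 (log2 0.60 ± 0.14) and TIMP1 (0.45 ± 0.11) were higher, and CXCL14 (-1.15 ± 0.26), SPARC (-0.61 ± 0.17), THBS1 (-0.45 ± 0.09) and TIMP3 (-0.39 ± 0.11) were lower. VASH2 did not pass (-0.78 ± 0.34, edgeR adjusted p = 0.144). The log2 difference of CXCL14 was -0.31 in tumor 1 and -2.13 in tumor 2. That of SPARC was -0.038 in tumor 1 and -1.19 in tumor 2, so tumor 2 supplied most of both. With 1 tumor left out TIMP1 was at 0.14 and 0.76 and TIMP3 at -0.69 and -0.11. In tumor 2, fibroblast markers summed to 759 against 2146 CPM in the high-score and low-score zones, and 8 muscle genes to 23.9 against 806 CPM. The fibroblast sums of tumor 1 were 1110 and 949 CPM. Without the spots richest in markers of other cell types, CXCL14 was at -1.14 and SPARC at -0.90, and both passed. Over 17 alternatives SPARC lost its call in 6, TIMP3 in 5, TIMP1 in 4 and CXCL14 and ADAMTS1 in 3 each. Leaving out the low-UMI area ended the calls of SPARC, TIMP3 and TIMP1, and at least 2000 UMIs per spot ended those and that of CXCL14.

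In the inner tertile 8 of 16 inhibitors were lower and none higher, beside 3.36% and 2.3% of all genes. CXCL14 (log2 -1.55 ± 0.15), THBS2 (-1.29 ± 0.22), SPARC (-1.27 ± 0.13) and SERPINF1 (-0.97 ± 0.11) had the largest differences of these 8. TIMP3, TIMP1, TIMP2 and COL18A1 were lower by log2 differences of -0.44 to -0.31. The fibroblast marker sums given above were also lower in the inner tertile. Without the spots richest in markers of other cell types each of the 8 still passed, with smaller differences for SPARC (-0.86) and THBS2 (-0.89). That setting leaves out 10% of the spots, so markers of other cells can remain, and their part in these differences was not tested. Its spread was taken wholly over all genes (infinite prior degrees of freedom), so its p-values are not on the footing of the main fit. CXCL10 had 1.41 ± 0.54 and did not pass (edgeR adjusted p = 0.136). It was close to the count filter, with a test in 5 of 14 alternatives and none in the main score comparison.

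Of 16 genes that process or release these factors, 15 were tested. PAM, the enzyme that amidates peptides such as adrenomedullin, was higher with the score (log2 0.80 ± 0.10, edgeR adjusted p = 7.92e-05), with 1.01 in tumor 1 and 0.56 in tumor 2. ADAMTS3, which activates VEGFC, was lower (-1.30 ± 0.41, adjusted p = 0.0436), as were FGFBP1, MMP14 and PLAU (-0.83 to -0.47). ADAMTS3 lost its call in 9 of 15 alternatives and FGFBP1 in 7 of 16. With 1 tumor left out PLAU was at -0.77 and -0.18 and MMP14 at -0.83 and -0.28. In the inner tertile 7 of 15 were lower and none higher, beside 3.36% and 2.3% of all genes: PCSK5 (-1.35 ± 0.20), MMP2 (-0.97 ± 0.13), FGFBP1 (-0.75 ± 0.21), MMP14 (-0.71 ± 0.08), PLAU (-0.49 ± 0.07), FURIN (-0.45 ± 0.07) and CTSD (-0.28 ± 0.07). Fibroblast markers were lower there too, and without the marker-rich spots FGFBP1 (adjusted p = 0.057) and CTSD (0.073) did not pass, while the other 5 did. FURIN and PCSK5 are proprotein convertases that cleave pro-VEGFC among other substrates. No gene of the 4 pathway lists passed the interaction test.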

How the data were processed

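The authors deposited UMI counts for each gene in each spot. Per the file headers they were made with Space Ranger 1.3.0, and the submitters' processing notes name hg38. Counts were not normalized before deposit. The array rows and columns of spots over tissue came with them, and images were not used here.

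Spots under 500 UMIs were left out, and counts were summed per tumor and zone, because spots from 1 section do not replicate each other. The score, the zones and the steps to the border (off-tissue areas of 5 or more positions, the frame edge not counted) are defined with the results. Sums were fitted in edgeR 4.0.16 (R 4.3.3) with TMM scaling, filterByExpr, the quasi-likelihood F test and a block for the tumor (1 residual degree of freedom, 3 in the interaction, beside prior degrees of freedom of 14.8, 18.1 and 14.3). Alternatives with a score or depth tertile as a term had 12 residual degrees of freedom, and the trends had 5 (score) and 3 (depth). In these and in the interaction, zones of the same section count as separate values, so p-values do not measure the spread between tumors alone. P-values were adjusted by Benjamini-Hochberg over all genes tested, without the score genes where zones came from the score. Log2 values of single tumors used a prior count of 2. Intervals of levels and ratios are exact and cover counting error only. On simulated sums, 63%, 63% and 26% of genes changed by log2 0.5 were recovered in the score, depth and interaction tests, and 97%, 97% and 91% of those changed by log2 1. The simulated sums had the same set spread for every gene and no difference between tumors. Only genes above a floor of expected counts were changed, so these shares hold for that setting and do not cover factors as low as STC2.

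All 10 factors were described. From 4 pathway lists, genes that passed and the 2 with the largest absolute difference were named; 1 listed gene is not reported here. Genes most like a factor were the 3 with the highest mean r over tumors among those at 50 or more CPM, for factors at 20 or more CPM. The members, lists and tests were chosen with earlier results of these data known. Alternatives covered scaling, DESeq2 1.42.0, count and UMI filters, thinning, zone widths, the border, the score's genes, the tumor block and the low-UMI area. RefSeq matched all 10 symbols.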

Additional observations from a re-analysis of the deposited data

How the results depend on the processing

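In the score comparison the factors had 148 alternative values with a test, of which 136 kept direction and call and 12 lost the call. In the depth comparison 87 of 122 did so, 24 lost the call, 8 gained it and 3 changed sign. The named pathway genes had 413 and 468 such values in the 2 comparisons, of which 339 and 365 kept direction and call and 72 and 95 lost the call. Calls over all genes with the score (2071) were 360 by DESeq2's test, 569 with no replicate block (the tumor), 1229 with at least 2000 UMIs per spot, 598 on spots thinned to 2000 UMIs, 650 between outer deciles, 3937 as a trend over quartiles, 4154 with depth as a term and 3113 with the score from thinned spots, added after seeing the data. Called factors (8) were 5 by DESeq2's test, 4 after thinning and 6 without the block. EFNB2 changed sign after thinning (log2 0.14).

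With depth, calls (836) were 394 with library size alone, 102 by DESeq2's test, 41 with no replicate block, 208 after thinning, 1858 with the score as a term, 1621 as a trend, 1395 with the frame edge as border and 1593 with the score term and no low-UMI area, also added. Called factors (4) were 1 with library size alone, 1 by DESeq2's test, 0 with no replicate block, where edgeR gave 1680 genes an unadjusted p under 0.05, 1 after thinning and 2 between outer quartiles. With the score term VEGFA was at log2 -0.077 (low-UMI area left out) and PGF at -0.015 and -0.053 (left out). Interaction calls (2) were 38 without filterByExpr, where ADM passed (adjusted p = 0.029), 0 with no replicate block and 26 with at least 2000 UMIs per spot. Leaving out the low-UMI area could not be fitted there. Fewer genes were tested after thinning (9715 and 10615), and the cause of the other moves was not tested.

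With library size alone the median log2 difference by score over all genes was -0.11, and the calls moved to 782 higher and 2198 lower, against 1161 and 910. All 8 called factors were still higher. With 1 tumor left out, the score differences of ADM, VEGFA, STC1 and ANGPTL4 lay between 1.62 and 2.70, and those of PGF, VEGFC, VEGFB and EDN1 between 0.27 and 0.83, without a test. EDN1 was at 0.27 without tumor 2. In the interaction the ADM value was -0.11 without tumor 2. Depth limits STC2 and FGF2, with 4 to 52 UMIs in a tumor.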
